A study of Mus musculus with 6 samples.

Results

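The 10 genes described here encode chemokines that place lymphocytes in lymphoid tissue at steady state and cytokines that keep leukocytes alive or growing in their niches. They were taken by symbol from the deposited expression table of 23337 genes, and all 10 were present: the chemokine genes Cxcl13, Ccl19 and Cxcl12, the receptor tyrosine kinase ligand genes Kitl, Csf1 and Il34, and the cytokine genes Il7, Il15, Tnfsf13b and Il33. They were measured in endothelial cells sorted as CD31-positive and CD45-negative from collagenase-treated spleens. The libraries were 3 from wild-type C57BL/6 mice (WT 1, WT 3 and WT 4) and 3 from C57BL/6 mice of genotype Stab1-/- (KO 2, KO 3 and KO 4), which lack the scavenger receptor stabilin-1, also called Clever-1. The comparison of the genotypes asks which secreted and membrane-bound signals to leukocytes differ in spleen endothelium without the receptor. Values by library are given in the order WT 1, WT 3, WT 4 and KO 2, KO 3, KO 4.

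Homeostatic chemokines are made without inflammation and set up the zones of the white pulp. CXCL13 draws CXCR5-bearing B cells into follicles, CCL19 draws CCR7-bearing T cells and dendritic cells into the T zone, and CXCL12 holds CXCR4-bearing plasma cells and progenitors in place. In the spleen most of this output is known to come from reticular stromal cells downstream of the lymphotoxin beta receptor and the alternative NF-kappaB pathway, and endothelium is known as a source of niche factors such as stem cell factor, the product of Kitl.

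The upstream sequences of Cxcl13 and Kitl, the 2 genes that changed, are shown with the core promoter element TATAAA in capitals. RefSeq windows of GRCm38.p6 were at hand for 7 of the 10 genes (Il7, Il15 and Il34 were not matched), and TATAAA was searched on both strands in the 250 bases before each start. The first line is chr5:95956689-95956938 (plus strand), the whole window before the Cxcl13 start. The second is chr10:100015776-100015805 (plus strand), a stretch of 30 bases before a Kitl start that lies inside the annotated gene.
Cxcl13: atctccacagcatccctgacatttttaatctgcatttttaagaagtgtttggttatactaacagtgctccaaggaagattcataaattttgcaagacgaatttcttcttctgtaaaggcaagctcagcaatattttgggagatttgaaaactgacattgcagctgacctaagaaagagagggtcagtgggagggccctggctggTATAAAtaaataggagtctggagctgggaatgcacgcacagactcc
Kitl: gggcgggcgggagggagctgTATAAAaagc
In Cxcl13 TATAAA lay 46 to 41 bases before the annotated start, and in Kitl 25 to 20 bases before it. The element was present in 12.4% of 32851 windows of the same length, and among the other genes with a window it was found upstream of Il33. The matches describe the letters and do not show binding.

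Expression values are RPKM, reads scaled by gene length and by library depth, so levels of different genes can be set side by side. Reads counted to genes, recovered from the deposited values, came to 40274424 to 51498038 per library. The targeted gene was at 21.6 to 43.6 RPKM in wild type and 2.32 to 2.62 in knockout. The genes of the sort markers followed the sort, with Pecam1, which encodes CD31, at 273 to 360 RPKM, while the CD45 gene Ptprc did not exceed 0.110 RPKM. Endothelial genes that were not used in the sort were high too, with Cldn5 at 1041 to 1367 RPKM and Tie1 at 267 to 516. Transcripts of other cells were present, such as the platelet gene Pf4 at 15.4 to 88.4 RPKM. Of 13 lymphocyte markers found none was high enough to test, and their summed level was 1.63 to 2.53 RPKM in wild type and 1.42 to 2.04 in knockout. WT 1 stood apart in transcripts of fibroblasts and mesothelium. Dcn, a collagen-binding proteoglycan gene of fibroblasts, was at 96.1 RPKM there and at 3.68 to 33.1 in the other libraries, and the summed level of 7 mesothelial markers was 14.9 there, 0.0141 in WT 3, 6.40 in WT 4 and 1.80 to 6.35 in knockout. Whether the libraries stem from separate animals is not stated in the labels, and the p-values below measure the spread between libraries, which may be technical. In bulk RNA of this kind fewer cells of a type and less RNA per cell cannot be told apart.

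In wild-type cells the 10 genes spanned a wide range of levels. Kitl (67.7 ± 9.28 RPKM, SD, n = 3) and Cxcl13 (62.4 ± 16.7) were highest, and their ranges overlapped. Both stood above Cxcl12 (26.9 ± 5.09), which stood above Csf1 (18.6 ± 0.530) and Il15 (15.5 ± 3.20). The latter pair overlapped and stood above Il34 (6.31 ± 1.09) and Ccl19 (4.58 ± 2.10). Il7 (1.80 ± 0.923), Il33 (1.40 ± 0.658) and Tnfsf13b (1.23 ± 0.523) were lowest, and each overlapped its neighbour in the order, as Il34 did with Ccl19 and Ccl19 with Il7. Among the 11035 genes tested, Kitl and Cxcl13 lay at the 87.2th and 86.2th percentile of the wild-type mean level. In knockout cells the order was Kitl, Cxcl12, Csf1, Cxcl13 and Il15, so that Cxcl13 moved from the rank of 2 to the rank of 4, and these 5 genes overlapped each with the next.

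**Figure D1:**
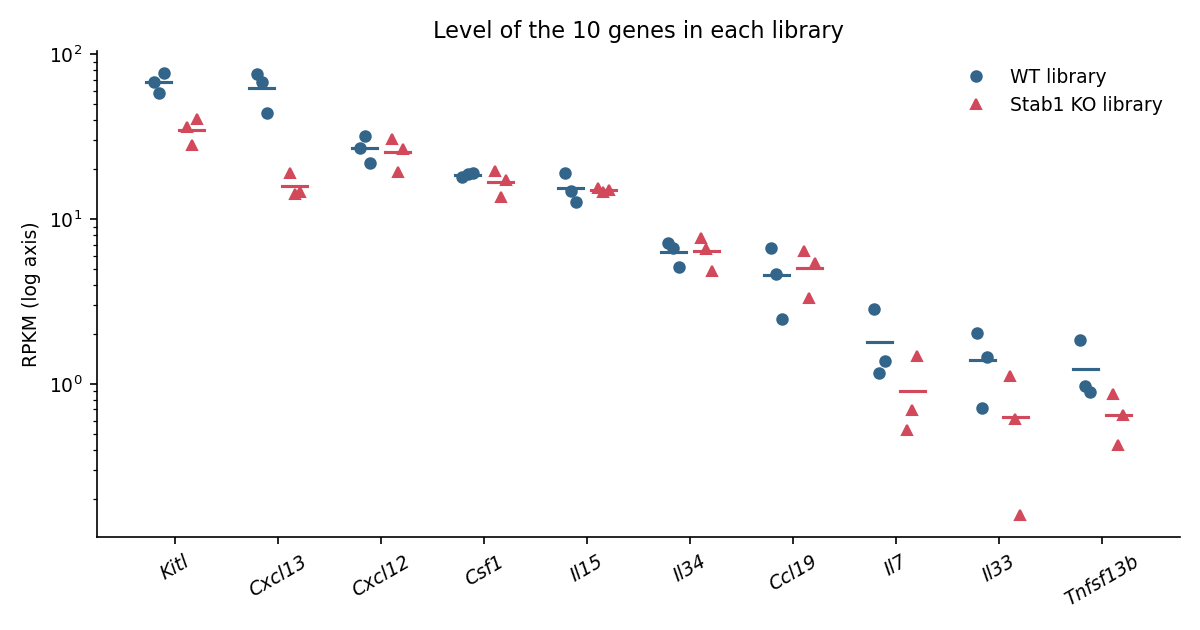
RPKM (log axis) of the 10 genes in each of 6 libraries, with circles for wild type, triangles for Stab1 knockout and bars for group means, ordered by the wild-type mean. Cxcl13 (43.7 to 76.0 in wild type and 14.2 to 19.1 in knockout) and Kitl (58.5 to 77.1 and 28.2 to 40.3) are the 2 genes above 2 RPKM whose groups are apart.

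Cxcl13 and Kitl were lower in knockout, and no member passed the test in the other direction. Of the 9 members that passed the filter of 1 RPKM in at least 3 libraries, 2 fell and 0 rose (limma, adjusted p under 0.05), where 1.94% of all genes tested passed, 1.27% by falling and 0.671% by rising. The members were chosen with earlier results of these data known, so the count beside these shares is a description and no test. Groups did not overlap for 2 of the 9, both lower in knockout, where 20.3% of all genes tested did not overlap and 9.57% were lower without overlap. The median log2 fold change over the 9 was -0.16 against 0.03 over all genes tested. Since 3 against 3 libraries allow an exact two-sided permutation p of 0.1 at best, which Cxcl13, Kitl and Tnfsf13b each had, adjusted p-values are those of the limma fit over all genes.

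Among the chemokines, Cxcl13 (gene ID 55985, chromosome 5, 95956939 to 95961068, GRCm38) measured 76.0, 67.6 and 43.7 RPKM across the wild-type libraries, against 19.1, 14.2 and 14.6 across those of the Stab1-/- mice. Every knockout library was below every wild-type library. These values rested on 692 to 3971 reads, so counting error was small beside the spread between libraries. The log2 fold change was -1.91 ± 0.20 (SE, 95% interval -2.36 to -1.46), with an adjusted p of 0.00159. The call held in each of 19 alternatives (log2 fold change -2.14 to -1.41, adjusted p at most 0.0301).

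Ccl19, the T zone chemokine gene (chromosome 4, 42754525 to 42756365), measured 6.66, 4.61 and 2.46 RPKM across wild-type libraries, against 6.41, 3.32 and 5.42 without Stab1. The groups overlapped throughout, with a log2 fold change of 0.18 (95% interval -0.55 to 0.90, adjusted p = 0.812). Ccl21a, a gene of the other CCR7 ligand, was listed at 0 in every library, but it has near-identical copies and its reads could have been lost in counting. Cxcl12 (chromosome 6, 117168535 to 117181368) reached 26.9, 32.0 and 21.8 RPKM with Stab1 and 30.5, 19.2 and 26.7 without it, again with full overlap. Its log2 fold change was -0.09 (95% interval -0.51 to 0.33, adjusted p = 0.840).

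The comparison of the chemokines within a library removes differences in depth. The level of Cxcl13 was 11.4, 14.6 and 17.7 times that of Ccl19 across wild-type libraries, against 2.98, 4.28 and 2.69 times without Stab1. The ratio was thus lower in all 3 knockout libraries (exact two-sided permutation p = 0.1, the smallest possible). This ratio and those of Kitl below were chosen after the values were seen.

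Of the ligands of receptor tyrosine kinases, Kitl fell. Its product, stem cell factor, acts through KIT on haematopoietic progenitors and mast cells and exists as a membrane-bound and a soluble form, which gene-level values cannot separate. Kitl (gene ID 17311, chromosome 10, 100015615 to 100100416) measured 67.6, 58.5 and 77.1 RPKM across wild-type libraries, against 36.0, 28.2 and 40.3 without Stab1. The groups did not overlap, and the log2 fold change was -0.96 ± 0.15 (SE, 95% interval -1.29 to -0.62, adjusted p = 0.0135 in limma). The call was lost without WT 4 (adjusted p = 0.0553), without KO 3 (0.0523) and when low genes were left in (0.0824), and removal of GC and length trends took the log2 fold change to -0.56 (adjusted p = 0.0264).

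Csf1 and Il34 encode the ligands of the CSF1 receptor, on which macrophages depend. Csf1 (chromosome 3, 107741048 to 107760469) measured 18.1, 18.7 and 19.1 RPKM across wild-type libraries, a narrow range, against 19.5, 13.7 and 17.3 without Stab1. Its log2 fold change was -0.16 (95% interval -0.48 to 0.16, adjusted p = 0.605). Il34 (chromosome 8, 110741829 to 110805949) gave 7.19, 6.65 and 5.10 RPKM with Stab1 and 7.72, 6.55 and 4.84 without it. Its groups covered nearly the same range, with a log2 fold change of 0.00 (95% interval -0.45 to 0.45, adjusted p = 0.997). Set against Cxcl12, a niche factor often named beside it, Kitl was at 2.51, 1.83 and 3.53 times its level across wild-type libraries, against 1.18, 1.47 and 1.51 times without Stab1, with no overlap (exact two-sided permutation p = 0.1). The ratio of Cxcl13 to Kitl was 1.12, 1.15 and 0.567 with Stab1 and 0.530, 0.505 and 0.362 without it, also with no overlap but with a gap of little width (exact two-sided permutation p = 0.1).

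The lymphocyte survival cytokines did not pass the test. Il15 (chromosome 8, 82331624 to 82403252), which sustains natural killer and memory T cells, measured 18.9, 14.8 and 12.6 RPKM across wild-type libraries, against 15.5, 14.7 and 15.0 without Stab1. The knockout values sat within the wild-type range (log2 fold change -0.02, 95% interval -0.36 to 0.32, adjusted p = 0.956). Il7 (chromosome 3, 7572028 to 7613760), needed by naive T cells, gave 2.86, 1.17 and 1.37 RPKM with Stab1 and 0.528, 0.691 and 1.48 without it. Its log2 fold change was -0.70 (95% interval -1.43 to 0.02, adjusted p = 0.329), with KO 4 inside the wild-type range.

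Tnfsf13b (chromosome 8, 10006229 to 10036000) encodes BAFF, the survival factor of B cells. It measured 1.84, 0.978 and 0.890 RPKM across wild-type libraries, against 0.864, 0.429 and 0.649 without Stab1, on 37 to 130 reads. The groups were apart, by a narrow gap between WT 4 and KO 2. The gene missed the filter, and with a filter of 0.5 RPKM its log2 fold change was -0.57 (adjusted p = 0.304 in limma). Il33 (chromosome 19, 29925113 to 29960718), a nuclear alarmin cytokine of endothelium and stroma that activates type 2 lymphoid cells, gave 2.03, 0.714 and 1.46 RPKM with Stab1 and 1.12, 0.612 and 0.160 without it. Its value in KO 4 rested on 17 reads. The log2 fold change of Il33 was -0.78 (95% interval -1.58 to 0.03, adjusted p = 0.331). Its size depended on the scale and on KO 4: it was -1.34 in voom, -1.19 with a pseudocount of 0.1 and -0.44 without KO 4, and it passed in none of these.

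**Figure D2:**
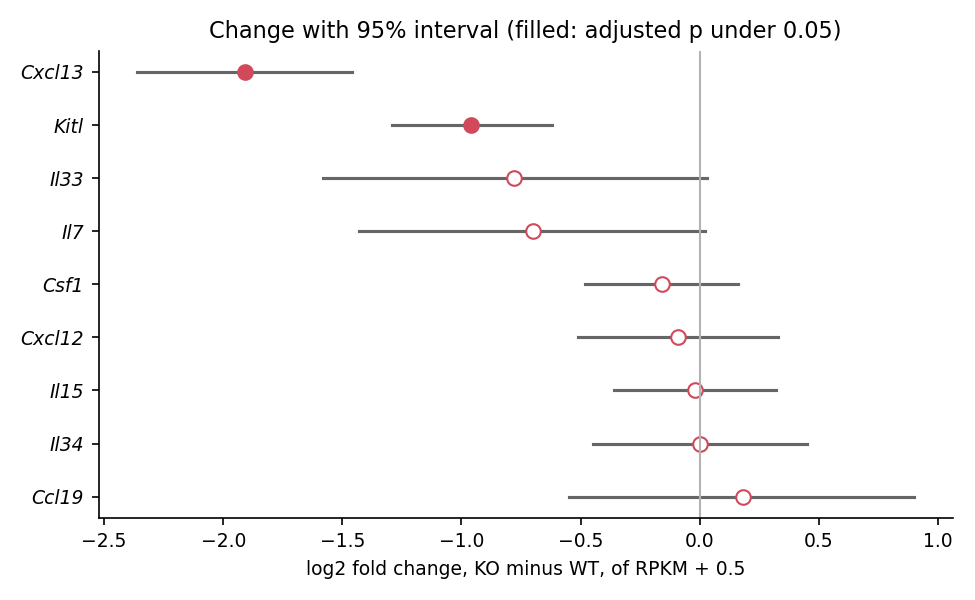
Log2 fold change (knockout minus wild type) of log2(RPKM + 0.5) for the 9 members tested, with 95% intervals from limma and filled points for an adjusted p under 0.05. Cxcl13 (-1.91) and Kitl (-0.96) are the 2 filled points, while the intervals of Il33 and Il7 end at 0.03 and 0.02.

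Several members, high and low, shared a library pattern. Of the 10 genes, 7 had their highest wild-type value in WT 1 (Cxcl13, Ccl19, Il7, Tnfsf13b, Il15, Il33 and Il34), the library rich in fibroblast and mesothelial transcripts, where 36.9% of all genes tested were highest. Within knockout, 8 of the 10 were highest in KO 2 (all but Kitl and Il7), where 27.3% of all genes tested were. Without WT 1 the log2 fold change of Il7 was -0.39 (adjusted p = 0.542), against -0.70 with it. For Il33, a gene also known from mesothelium and fibroblasts, the 3 highest values (WT 1, WT 4 and KO 2) came in the libraries with the highest summed mesothelial markers, 14.9, 6.40 and 6.35 RPKM. The other 3 libraries did not follow that order: Il33 was at 0.714 RPKM in WT 3, where those markers summed to 0.0141, and at 0.612 in KO 3 and 0.160 in KO 4, where they summed to 4.84 and 1.80. The part of these cells in the values of Il7, Il33 and Tnfsf13b was not tested.

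Because CXCL13 is known from follicular and marginal reticular cells, Cxcl13 was set against markers of reticular cells and fibroblasts at large. The 24 reticular and fibroblast markers summed to 646, 465 and 413 RPKM across wild-type libraries, against 505, 451 and 403 without Stab1, of which Mfge8 alone made up 284 to 363. Of 14 tested, 0 passed in limma (1 at an unadjusted p under 0.05), with a median log2 fold change of -0.24. These 14 include fibroblast genes such as Dcn, and the follicular dendritic cell gene Cr2 was too low to be among them. A comparison with their mean therefore does not single out follicular or marginal reticular cells. On the log2 scale Cxcl13 lay above the mean of these 14 markers by 2.17, 3.45 and 2.25 with Stab1 and by 0.85, 0.83 and 0.94 without it. The difference between groups was -1.75, the groups did not overlap (exact two-sided permutation p = 0.1), and it was -1.98 to -1.33 when each library was left out. Against the mean of 12 endothelial markers the difference was -2.08, also without overlap. Of those 12 markers 10 had a positive difference, with a median log2 fold change of 0.21, and 0 passed in limma. Their differences are part of the -2.08, where Cxcl13 itself had -1.91.

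Cr2 and Wt1, a pair of low markers from this list of 24, were chosen after their values were seen, and other markers of the list went the other way. Cr2, the complement receptor gene of follicular dendritic cells and B cells, measured 0.954, 1.45 and 1.09 RPKM across wild-type libraries, against 0.713, 0.130 and 0.241 without Stab1. Wt1, a transcription factor gene of spleen stroma and mesothelium, gave 1.05, 1.06 and 0.913 RPKM with Stab1 and 0.377, 0.165 and 0.309 without it. Both were lower in every knockout library, and both missed the filter. With a filter of 0.5 RPKM, Wt1 had a log2 fold change of -0.95 (adjusted p = 0.0343 in limma) and Cr2 of -1.0 (0.105). When all low genes were left in, the adjusted p-values were 0.0603 for Wt1 and 0.230 for Cr2. Of the 14 markers tested with the filter of 1 RPKM, 10 had a negative difference and 4 a positive one. Lepr, with the smallest p of the 14, had a log2 fold change of -0.52 (adjusted p = 0.278 in limma) and Tcf21 of -0.28 (0.486). Of markers with a positive difference, Madcam1, also known from follicular stroma, averaged 7.37 RPKM with Stab1 and 10.2 without it (log2 fold change 0.34, adjusted p = 0.586), Ch25h had 0.79 (0.519) and Pdgfrb 0.37 (0.514). Mfge8 had -0.01 (0.974). The part of such cells in the fall of Cxcl13 was not tested.

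Kitl was set against the same lists. Relative to the mean of the 12 endothelial markers it lay at -0.95, -1.63 and -1.02 (log2) across wild-type libraries, against -2.28, -2.68 and -2.03 without Stab1. The difference was -1.13, without overlap (exact two-sided permutation p = 0.1), where Kitl itself had -0.96 and 10 of the 12 markers had a positive difference. Against the 14 reticular markers it was -0.80, and the groups overlapped (2.0, 3.25 and 3.06 with Stab1, 1.75, 1.79 and 2.37 without it, exact two-sided permutation p = 0.2). The 12 megakaryocyte and platelet markers summed to 107 to 302 RPKM with Stab1 and 73.3 to 95.5 without it. Of these 12, 11 had a negative difference, 5 had an unadjusted p under 0.05 (limma) and 1 passed, with a median log2 fold change of -0.85. Pf4, which passed, had -1.62 (adjusted p = 0.0160), Clec1b -1.03 (0.0596), Tubb1 -0.98 (0.264) and Ppbp -0.96 (0.197). The 15 macrophage markers summed to 386 to 439 RPKM and 243 to 342 RPKM (1 of 5 tested passed, Fcer1g, lower). Of these 5, 4 had a negative difference and 3 an unadjusted p under 0.05 (limma, against 15.7% of all genes tested). Their median log2 fold change was -0.51, with Lyz2 at -0.78 (adjusted p = 0.250) and Tyrobp at -0.51 (0.295). Without Fcer1g, an Fc receptor chain gene also known from platelets, the other 14 summed to 171 to 209 RPKM and 187 to 227 RPKM, which overlapped. Vcam1 alone made up 155 to 212 RPKM of those sums, so they say little of the other markers. Among 11 pericyte and smooth muscle markers Rgs5, a pericyte gene, fell (8.71, 5.14 and 5.83 RPKM with Stab1, 1.97, 1.91 and 2.87 without it, log2 fold change -1.34, adjusted p = 0.0194), and the list had a median of -0.06. The adjusted p of Rgs5 in limma was 0.02 to 0.0922 when each library was left out, and 0.103 with no filter on low values. Of 20 genes of dissociation and early response, which are known to rise during tissue digestion, 17 had a positive difference, against 5991 of all 11035 genes tested. An unadjusted p under 0.05 (limma) was found for 8, against 15.7% of all genes tested. These 8 included the chaperone gene Hsp90aa1, which was lower (log2 fold change -0.55, adjusted p = 0.204). The 1 that passed was the chaperone gene Hspa8 (33.2, 92.8 and 97.2 RPKM with Stab1, 188, 205 and 203 without it, log2 fold change 1.56, adjusted p = 0.0488). The call of Hspa8 was lost in voom (adjusted p = 0.059), with robust variances (0.151) and with no filter on low values (0.213). When each library was left out, its adjusted p in limma ran from 0.000941 to 0.167. Btg2 and Egr1 had log2 fold changes of 0.36 (adjusted p = 0.138) and 0.44 (0.191), and the chaperone genes Hspa1a and Hspa1b 0.08 (0.765) and 0.0 (0.996). The defining macrophage gene Csf1r did not exceed 0.118 RPKM in any library. The part of the other cells, and of digestion, in the falls of Kitl and Cxcl13 was not tested.

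**Figure D3:**
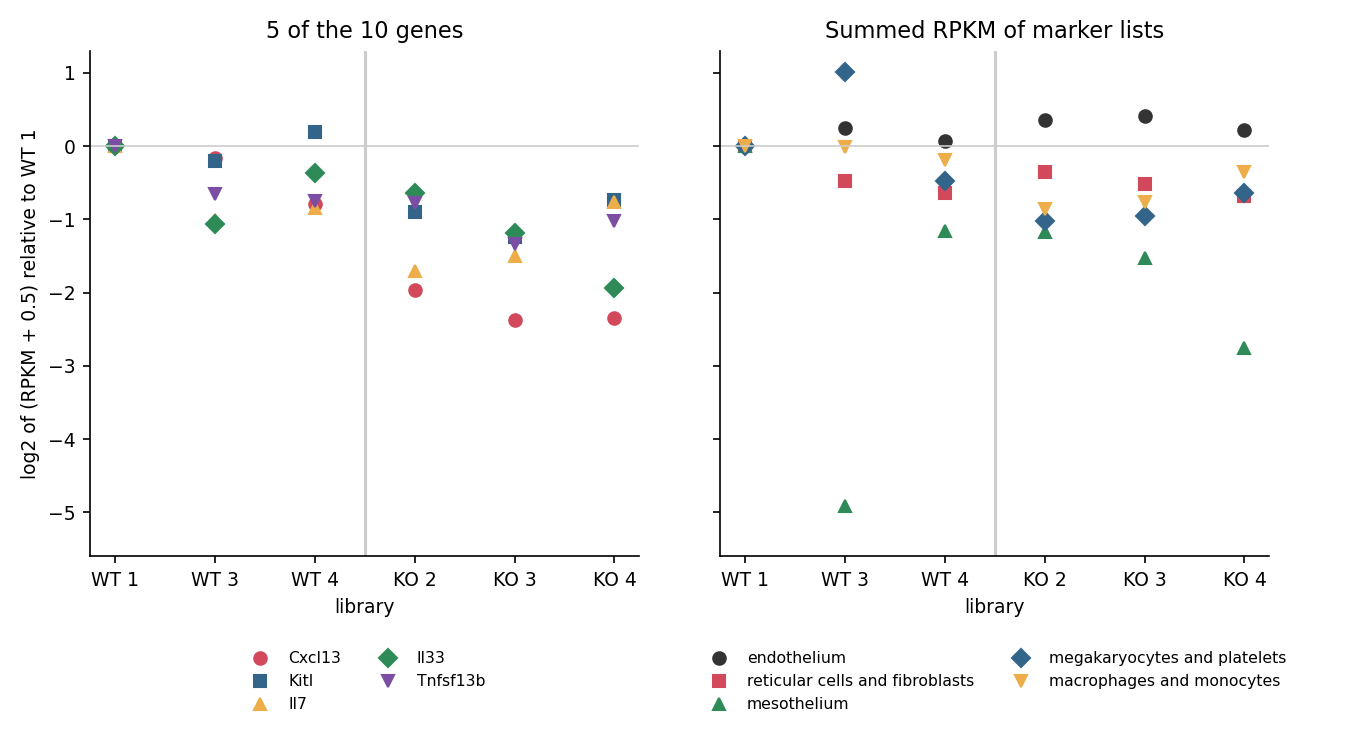
Log2 of (RPKM + 0.5) relative to WT 1 in each of 6 libraries for 5 of the 10 genes (left) and for the summed RPKM of 5 marker lists (right), with a vertical line between genotypes. Cxcl13 is lowest in the knockout libraries, where reticular markers sum to 403 to 505 RPKM, within reach of 413 and 465 in WT 4 and WT 3, and mesothelial markers are nearly missing in WT 3.

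Genes whose profile over the 6 libraries lay nearest to these 2 members were found by the root mean square distance of centred log2 values. For Cxcl13 they were Zfp52 (distance 0.277 log2 units, chromosome 17), a zinc finger gene, Irak4 (0.312, chromosome 15), a kinase gene of interleukin-1 and Toll-like receptor signalling, and Pf4 (0.333, chromosome 5), the platelet chemokine gene. Irak4 measured 7.56, 8.04 and 8.12 RPKM across wild-type libraries, against 1.99, 1.96 and 2.12 without Stab1. For Kitl they lay nearer: Tmem47 (0.062, chromosome X), a junction-associated membrane protein gene, Mysm1 (0.0855, chromosome 4), a histone deubiquitinase gene, and Tfpi (0.104, chromosome 2), a coagulation inhibitor gene of endothelium. Tmem47 gave 54.1, 41.6 and 54.6 RPKM with Stab1 and 25.6, 21.2 and 29.4 without it, close to the Kitl profile in shape and size. On the chromosome, 1 of 37 tested genes within 5 Mb of Cxcl13 passed the test (Rasgef1b, 3.28 Mb away) and 0 of 19 within 5 Mb of Kitl.

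No receptor gene of these ligands passed the test. Of 17 receptor genes 6 were high enough to test, and 0 passed (limma, with 0 at an unadjusted p under 0.05, where 15.7% of all genes tested had one, and 0 in voom), with a median log2 fold change of 0.05. The leukocyte receptor genes for CXCL13 and CCL19 were near 0, with Cxcr5 at 0.293 RPKM or less and Ccr7 at 0.352 or less. Endothelial cells did hold Kit, the receptor of the Kitl product, at 14.3 ± 4.09 RPKM in wild type and 14.6 ± 0.844 in knockout (95% interval of the log2 fold change -0.36 to 0.49). Il15ra, which presents IL-15 to neighbouring cells, was at 28.3 ± 0.896 and 28.8 ± 1.52, and Il2rg, the common gamma chain, at 1041 ± 93.0 and 930.2 ± 30.3, lower without overlap (adjusted p = 0.447). Ackr3, a scavenging receptor of CXCL12, was at 819 ± 91.6 and 904 ± 104. Sdc1, a proteoglycan gene, was at 28.8 ± 2.68 and 26.6 ± 1.79, and Il1rap, the co-receptor gene for IL-33, at 0.984 ± 0.0887 and 1.08 ± 0.217. Cxcr4, the signalling receptor gene for CXCL12, missed the filter, with 0.965, 1.25 and 1.39 RPKM across wild-type libraries, against 0.964, 0.835 and 0.486 without Stab1, where KO 2 all but touched WT 1.

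Related ligands and the upstream pathway were examined from lists. Of 12 further steady-state chemokine genes 3 were tested and 0 passed (limma, 0 in voom). Among these 3, 2 had an unadjusted p under 0.05 (limma), against 15.7% of all genes tested. Cx3cl1, a membrane-bound chemokine gene, averaged 8.20 ± 0.867 RPKM with Stab1 and 5.74 ± 1.14 without it (adjusted p = 0.220), and Cxcl16 averaged 131 ± 10.7 and 155 ± 4.38 (0.257), each without overlap. Ccl25 gave 1.62, 2.08 and 2.06 RPKM with Stab1 and 1.72, 0.926 and 1.86 without it (adjusted p = 0.546). Of 20 other growth and survival factor genes 8 were tested and 0 passed (limma, 0 at an unadjusted p under 0.05, 0 in voom). Flt3l, the dendritic cell growth factor gene, was at 14.9 ± 1.77 and 12.1 ± 1.52 (adjusted p = 0.366). Csf3, of granulocyte growth, ranged from 0.161 to 5.63 RPKM in wild type and from 0.287 to 15.8 in knockout, and its log2 fold change of 1.5 ran from 0.52 (without KO 3) to 2.71 (without KO 4). The Notch ligand genes Dll4 and Dll1 had log2 fold changes of 0.27 (adjusted p = 0.574) and 0.14 (0.658).

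The lymphotoxin receptor and alternative NF-kappaB genes, which act upstream of Cxcl13 and Ccl19, did not pass either (0 of 16 tested in limma, 0 in voom, median log2 fold change 0.06). An unadjusted p under 0.05 (limma) was found for 2 of the 16, against 15.7% of all genes tested. Ltbr, the receptor gene, was at 60.2 ± 5.88 RPKM in wild type and 65.1 ± 7.11 in knockout, Nfkb2, which encodes the p52 precursor, at 57.6 ± 4.35 and 63.8 ± 13.4, and Relb at 79.3 ± 7.33 and 87.7 ± 11.0. The 95% intervals of their log2 fold changes were -0.15 to 0.37, -0.19 to 0.45 and -0.12 to 0.40. Chuk, which encodes the IKK-alpha kinase of this pathway, measured 20.8, 21.6 and 24.6 RPKM across wild-type libraries, against 14.9, 12.1 and 19.6 without Stab1. The groups did not overlap, and the difference did not pass (log2 fold change -0.53, adjusted p = 0.178 in limma). When each library was left out, it ran from -0.71 (adjusted p = 0.0389, without KO 4) to -0.37 (0.572, without KO 3). With GC and length trends removed it was -0.26 (0.241). Birc2, a ubiquitin ligase gene that restrains the pathway, had a log2 fold change of -0.39 (adjusted p = 0.142), also without overlap. Traf3 and Traf2, adaptor genes that act with it, had 0.39 (0.402) and 0.19 (0.452).

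Among genes that capture, display or trim chemokines, 0 of 23 tested passed (limma, 0 in voom, median log2 fold change 0.06). There were 2 at an unadjusted p under 0.05 (limma), against 15.7% of all genes tested. Ackr4, a scavenging receptor of CCL19, was at 45.8 ± 11.0 RPKM in wild type and 45.4 ± 9.12 in knockout. Ackr1, which carries chemokines across venules, ranged from 1.16 to 26.8 in wild type and from 3.98 to 32.4 in knockout (log2 fold change 1.41, adjusted p = 0.515). That difference was 0.67 without WT 3 and 2.69 without WT 1 (adjusted p = 0.740 and 0.0913). Ackr2, a scavenger of inflammatory chemokines, had a log2 fold change of 0.25 (adjusted p = 0.300) and Extl3, a heparan sulfate synthesis gene, of 0.38 (0.479). Dpp4, a protease gene whose product inactivates CXCL12, was at 4.93 ± 0.603 and 3.13 ± 0.585 without overlap, and did not pass (log2 fold change -0.59, adjusted p = 0.163).

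**Figure D4:**
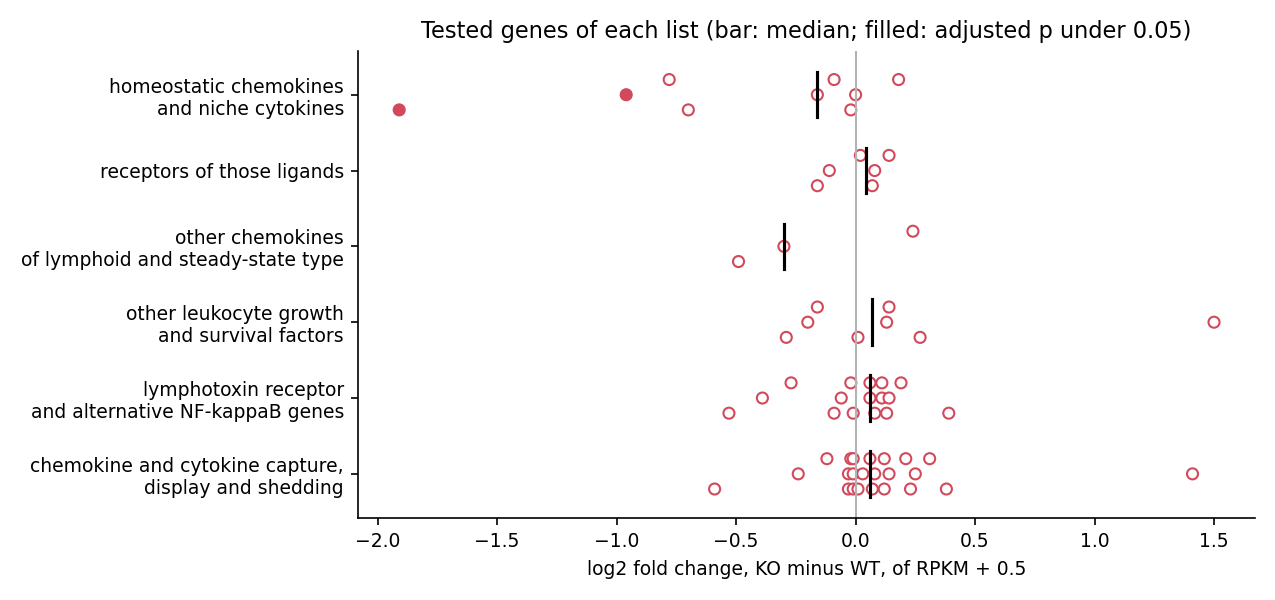
Log2 fold change (knockout minus wild type, of RPKM + 0.5) of each tested gene in the homeostatic chemokine and niche cytokine set and in 5 related lists, with bars at the list medians and filled points for an adjusted p under 0.05. The filled points are Cxcl13 (-1.91) and Kitl (-0.96), and the open points far to the right are Csf3 (1.5) and Ackr1 (1.41).

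In the authors' deposited table of 13742 genes, where 1.57% had an adjusted p under 0.05, Cxcl13 was 3.83-fold lower in knockout (log2 fold change -1.94, adjusted p = 0.00943) and Kitl 1.96-fold lower (-0.97, 0.0186). The other 8 members had adjusted p-values from 0.328 (Il7) to 0.979 (Il34) in the authors' deposited table, where the log2 fold change was -1.03 for Il7, -1.31 for Il33 (adjusted p = 0.374) and -0.89 for Tnfsf13b (0.355).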

How the data were processed

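RNA came from CD31-positive, CD45-negative spleen cells, with cDNA from a SMART-Seq v4 kit and Nextera XT libraries, per the labels' protocols, a combination that does not mark strand. Per the submitters' processing notes, the tools were limma, edgeR, Subread and STAR 2.5.2b, with mm10 as the build, and neither order nor settings are given. The authors deposited RPKM for each gene and library; the unit was read from the values, which were whole multiples of 1 read's worth within 0.001 for 17683 of 17683 genes above 0 and gave whole gene lengths (within 0.1 bases) for 99.17% of 12100 genes with over 50 reads on average. The authors also deposited mean RPKM, log2 fold changes, signed fold changes and p-values for the comparison, per the file headers. Column names hold numbers other than the replicate numbers of the labels, and only their genotype was used.

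As RPKM need a log-scale test, limma 3.58.1 (R 4.3.3, intensity trend) compared the genotypes on log2(RPKM + 0.5) over the 11035 genes that reached 1 RPKM in 3 libraries or more, with Benjamini-Hochberg adjustment over all of them and a threshold of 0.05. Fold changes on this scale understate the change of low genes. The count test was voom on the recovered reads, with the scaling of the deposited values in place of TMM, and it called 222 genes against 214 in the RPKM fit. The members and the 14 other lists were chosen with earlier results of these data known. Of 213 list entries, 207 matched by symbol, 5 by an older symbol, and 1 did not match. Named genes were all members, up to 4 of smallest p per list, and the 3 nearest profiles of each called member (predicted genes and pseudogenes left out). Genes named outside this rule for their known roles or levels (Kit, Il15ra, Cxcr4, Cxcr5, Ccr7, Csf1r, Ltbr, Nfkb2, Relb, Ackr4, Ccl21a, Dcn, Ptprc, Madcam1, Mfge8, Cr2, Wt1, Vcam1, Hspa1a and Hspa1b) were chosen after their values were seen. The fit was tested on simulated data. Total reads per library were 40274424 to 51498038, so counting error matters only for the lowest members. GC content came from the longest GENCODE M21 transcript per gene, coordinates from RefSeq GRCm38.p6. Python 3.11.15 with pandas 2.3.3, scipy 1.17.1 and matplotlib 3.10.9 was used for the rest.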

Additional observations from a re-analysis of the deposited data

How the results depend on the processing

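The fall of Cxcl13 kept its direction and its call in all 19 alternatives, of which 18 were planned and the block by column number was not. Kitl kept its direction in all of them and lost its call with no filter on low values (log2 fold change -0.96, adjusted p = 0.0824), without WT 4 (-0.86) and without KO 3 (-0.81); its log2 fold change was -1.07 to -0.81 when each library was left out. The count of members passing was 1 with no filter on low values, 4 with library quality weights (3 lower and 1 higher) and 1 to 2 when each library was left out, while the count of all genes passing was 77 with no filter, 3653 with quality weights and 56 (without KO 3) to 418 (without KO 4) when each library was left out, against 214. With quality weights, which gave WT 4 a weight of 4.19 and WT 1 one of 0.336, Ccl19 (log2 fold change 0.86, adjusted p = 0.0252) and Il7 (-0.75, 0.0200) passed; the cause was not tested. The same weights gave 1 call among further steady-state chemokines, 2 among growth factors, 5 among lymphotoxin receptor and NF-kappaB genes and 6 among capture and display genes.

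No paired analysis by the labels' replicate numbers was possible because the columns carry other numbers. A replicate block by column number was chosen after seeing the file, since 3 and 4 occur in both genotypes. WT 1 and KO 2 have no partner of the same number. The genotype differences of this fit therefore rest on WT 3, WT 4, KO 3 and KO 4 alone. With this block the count of members passing stayed at 2, with Cxcl13 at -1.88 (adjusted p = 0.000154 in limma) and Kitl at -0.98 (0.00142). In all, 355 genes passed, with 1 gene among those of capture and display (Ackr1, log2 fold change 2.68, adjusted p = 0.0267). Deviations from the group means correlated at 0.193 for both same-numbered pairs, a hint from the data and not from the design. The low members Il33 and Tnfsf13b, at 17 to 220 reads, are limited by counting as well as by the spread between libraries.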
